A study of Dicentrarchus labrax with 35 samples.

Results

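The 200 sea bass transcripts described here were already higher in juvenile testes than in undifferentiated gonads. They were higher still in 3 of 5 testes of fish whose food had been cut after fast growth. The other 2 testes of that group, and those of slow-growing fish also given less food, showed no such rise. The choice favoured this, since it left out those 2 testes and counted the slow-growing fish in the baseline. The 200 transcripts were chosen from 11705 target sequences on a custom array of the European sea bass (Dicentrarchus labrax), a fish in which sex depends on several loci and on the environment. The choice used the log2 values deposited by the authors. A was the mean of the 15 gonads at day 133 and B the mean of the 15 testes of the SF, FF and SS groups at day 332. C was the mean of 3 testes of the FS group, FS1, FS2 and FS4. These 3 had been set apart because they diverged from the other day 332 testes in these same data. A probe was kept when B exceeded A by at least 0.5 and C exceeded B by at least 1 on the log2 scale, which 742 of 24200 probes did. These belonged to 354 targets. Each target was then represented by its probe with the largest C minus B, and the 200 targets with the largest difference were taken.

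Each array held the RNA of 1 whole gonad, labelled with a single dye. At T2 (day 332 after fertilization in the sample labels) there were 5 testes in each of 4 groups. FS fish had grown fast and were then slowed by less food, SF fish had grown slowly and were then sped up by overfeeding, FF fish had grown fast and were kept so by overfeeding, and SS fish had grown slowly and were slowed further by less food. At T1 (day 133) there were 7 undifferentiated gonads of fast-growing fish (F, the longest fish) and 8 of slow-growing fish (S, the shortest). All fish came from a single size-graded population. The T2 fish were males, and their testes held no spermatozoa according to the study's methods. Each T2 group was reared in a tank of its own, so that tank and feeding cannot be told apart, and p-values measure the spread between fish of the same tank.

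The European sea bass gonad stays undifferentiated for a long part of the first year, and larger juveniles tend to become females. During testis differentiation the germ cells become enclosed by supporting Sertoli cells, Leydig cells that make androgens appear between the tubules, and spermatogenesis follows later. In juvenile fish, food supply and growth are tied to the endocrine signals that reach the gonad. The array files name probes and target sequences but no genes. None of the probe or target names matched the 30274 genes of the RefSeq table, so the labelled tissue could not be checked against marker genes, and the functions of the 200 targets are not described. The files hold no probe sequences. In whole gonads, a change in the number of cells of a type and a change in RNA per cell cannot be told apart.

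By the values that chose them, the 200 targets were higher in the SF, FF and SS testes than at day 133 by 0.50 to 3.45 on the log2 scale (median 0.82, which is 1.77-fold). They were higher in FS1, FS2 and FS4 than in the SF, FF and SS testes by 1.42 to 6.29 (median 1.84, which is 3.57-fold). The FS1, FS2 and FS4 mean thus stood above the day 133 mean by a median of 2.80. The difference from the other testes was larger than the difference with age in 187 of the 200. These ranges describe the choice and were not tested. Of the T2 arrays only FF2 shared a slide with day 133 arrays (S2, S3 and S4), so age and slide cannot be told apart in B minus A. FF2 was also the only T2 array of the second scan day, which held all F arrays and S1 to S4. The part of scan day in B minus A was not tested. In 176 targets C minus B was at least 1.5, in 76 at least 2, in 20 at least 3 and in 5 at least 4. The size of one difference told little about the other, with a Pearson r of 0.007 between B minus A and C minus B over the 200 targets, both of which were cut off from below by the choice. The last target inside had a C minus B of 1.422 and the first outside 1.415. Among targets just short of the age limit, one with a B minus A of 0.495 had a C minus B of 1.43.

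**Figure D1:**
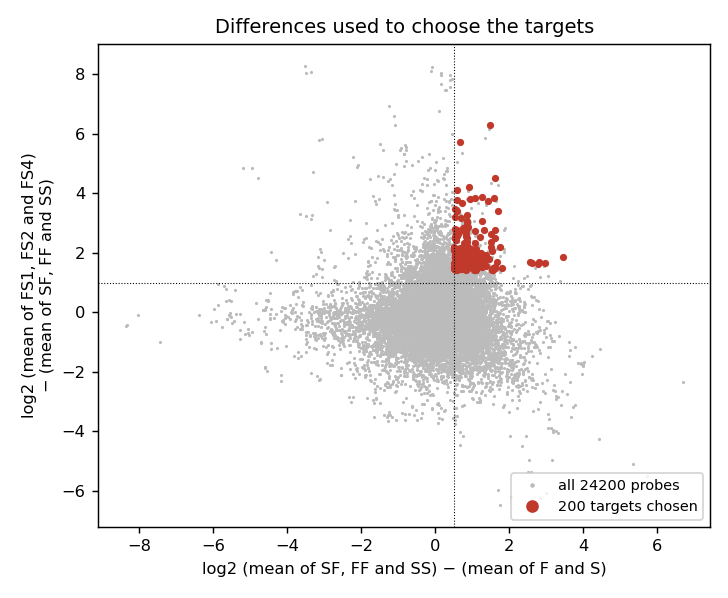
Each point is a probe of the deposited log2 values, with B minus A (SF, FF and SS testes minus day 133 gonads) on the horizontal axis and C minus B (FS1, FS2 and FS4 minus SF, FF and SS testes) on the vertical axis, both as log2 differences, and dotted lines at the limits of 0.5 and 1. The 200 chosen targets, in red, lie between 0.50 and 3.45 across and between 1.42 and 6.29 up.

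Most probes that were higher at day 332 were not further up in FS1, FS2 and FS4. Of the 4880 probes with B minus A of at least 0.5, 3112 stayed within 1 of the other testes in FS1, FS2 and FS4, 1026 were lower there by at least 1, and the remaining 742 were those that met both limits. A C minus B of at least 1 was found in 15.2% of the probes that were higher at day 332 by 0.5 or more, and in 8.55% of the other probes. Conversely, of the 2394 probes that were high in FS1, FS2 and FS4, 1298 differed with age by less than 0.5 and 354 were lower at day 332 by at least 0.5. B takes part in both differences with opposite sign, so these shares are given as counts only.

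Other probes against the same targets, which the choice did not need, gave similar values. There were 354 such probes for 179 of the targets. C minus B was at least 1 in 334 of them (94.4%), against 9.89% of all probes on the array, and B minus A was at least 0.5 in 280 (79.1%), against 20.2% of all probes. Their median C minus B was 1.61 and their median B minus A 0.79. In 3 of these probes C minus B was at or below 0, and in 9 targets the chosen probe exceeded the median of the others by at least 1. The remaining 21 targets had a single probe. These probes were hybridised with the same RNA, and they show how the value held between probes, not between fish.

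On the values recomputed from the scanner output, the level of the 200 targets on an array was taken as the median over targets of the log2 difference from the mean of the 15 SF, FF and SS testes. In the FS group this median was 1.77 for FS1, 1.81 for FS2 and 1.84 for FS4, but 0.03 for FS3 and -0.12 for FS5. It lay between -0.06 and 0.13 in SF (median 0.01), between -0.22 and 0.16 in FF (median 0.03) and between -0.24 and 0.10 in SS (median -0.05). FS1, FS2 and FS4 were thus high, as the choice required. FS3 and FS5 lay among the other testes, which follows in part from how the FS group was split and is no separate result. The SF, FF and SS testes made up the mean used as reference, which keeps their levels near it. The paper had reported that its FS3 and FS5 grouped with FF or SS fish. At day 133 the median ran from -1.15 to -0.29 in F (median -0.93) and from -1.12 to -0.65 in S (median -0.90), so that no day 133 gonad reached the lowest testis. The difference between the age groups at this level is part of the choice.

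**Figure D2:**
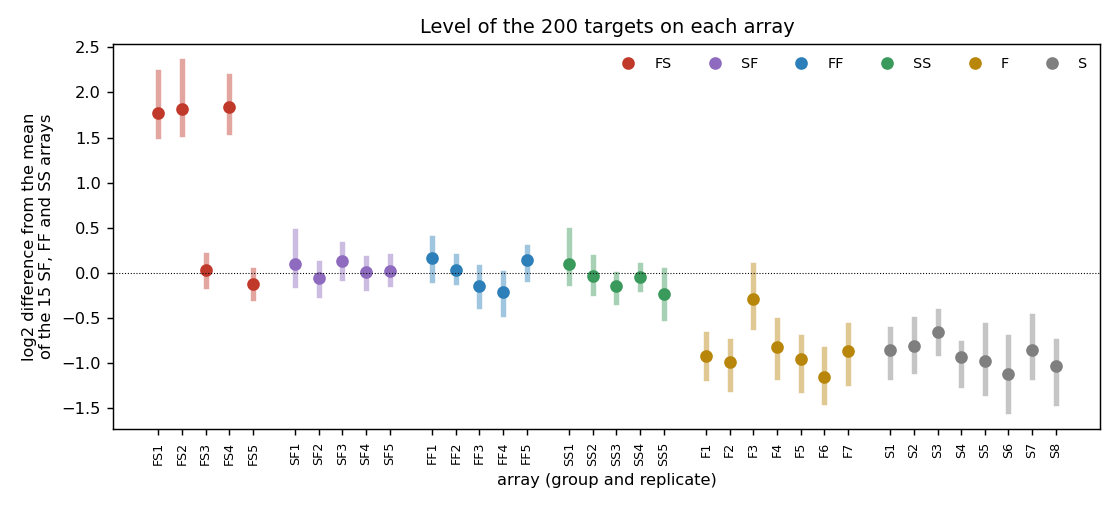
Points give the median over the 200 targets of the log2 difference from the mean of the 15 SF, FF and SS arrays, and bars the span from the lower to the upper quartile over targets, for each of the 35 arrays. FS1, FS2 and FS4 sit between 1.77 and 1.84, FS3 and FS5 at 0.03 and -0.12, and the F and S arrays between -1.15 and -0.29, with F3 the highest of these.

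The position of FS3 and FS5 was similar target by target, which the split of the FS group favours. FS3 lay inside the range of the 15 other testes in 192 of the 199 targets with a value (96.5%; 92.3% over all probes), above it in 5 and below it in 2. FS5 lay inside the range in 188 of 200 (94.0%; 90.2% over all probes), above it in 3 and below it in 9. FS5 was below the mean of the 15 testes in 141 targets and FS3 in 89. No target was higher in either fish by 1 or more. Both were above the day 133 mean, FS3 in 196 targets and FS5 in 200, which the choice and the split of the FS group favour. Both stood above every single F and S array in 97 of the 197 targets measured on all arrays (49.2%), against 14.8% of all probes, a comparison in which the day 133 values were used by the choice.

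FS3 was hybridised on the same slide as FS1, FS2 and FS4, and FS5 on a slide with 3 SF arrays. The part of slide in the level of the targets was not tested. FS1, FS2 and FS4 had a share of spots well above background of 71.8 to 76.4%, FS3 and FS5 of 78.5 to 85.3%, and over all 20 T2 arrays the share was 67.2 to 87.8%. The part of array brightness in the level of the targets was not tested.

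The values of FS1, FS2 and FS4, which the choice averaged, are given as a description. Their 3 arrays stood above all 15 SF, FF and SS arrays in 188 of 197 targets (16.6% of all probes on the array did so), which the choice favours. Each of the 3 was at least 1 above the mean of the 15 testes in 193 of 200 targets. The range over the 3 fish had a median of 0.41, and the differences of the 3 arrays from the other testes were correlated over the 200 targets with a Pearson r of 0.79 (FS1 and FS2), 0.85 (FS1 and FS4) and 0.80 (FS2 and FS4), values that share the mean of the other testes and that the choice selected on. The highest of the 3 was FS1 in 46 targets, FS2 in 80 and FS4 in 74. In 12 targets the 3 fish differed by 1 or more, with the highest value in FS1 for 5 of them, in FS2 for 2 and in FS4 for 5. The widest range was 4.03, and the smallest single difference of the 3 fish from the other testes was 0.16. The median SD over FS1, FS2 and FS4 was 0.21 for the 200 targets (0.15 over all probes), over the SF, FF and SS testes 0.31 (0.25) and over the day 133 gonads 0.36 (0.33).

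The 2 targets with the largest C minus B are given by identifier. CUST_9509_PI416070213, against the target cDN23P0002D21.F.ab1, had log2 levels of 16.14 for FS1, 16.33 for FS2 and 15.49 for FS4, with 10.12 for FS3 and 9.27 for FS5. It measured 8.96, 9.54, 10.92, 11.10 and 9.86 in SF1 to SF5, 9.71, 10.12, 9.94, 9.50 and 10.52 in FF1 to FF5, and 9.18, 9.47, 9.77, 9.95 and 10.24 in SS1 to SS5. FS1, FS2 and FS4 were more than 4 above every other testis, and FS3 and FS5 lay among them. By the deposited values its C minus B of 6.29 was a 78.2-fold difference. The other 2 probes of the target gave a C minus B of 5.86 and 6.17. At day 133 it was 13.87 in F3 and 12.78 in S3, while the remaining 13 gonads lay between 7.29 and 9.12 (median 7.42). The F3 and S3 levels exceeded those of all SF, FF and SS testes.

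At day 133 this probe was well above background on 3 of 7 F arrays and 2 of 8 S arrays, so that most of its low values there are near the floor of the measurement, and its B minus A of 1.48 is given with no fold. It was well above background on all 20 T2 arrays.

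CUST_11232_PI416070213, against cDN24P0004P05.F.ab1, had log2 levels of 16.83 for FS1, 17.45 for FS2 and 17.37 for FS4, with 10.95 for FS3 and 11.02 for FS5. It measured 13.47 in SF1 and 10.76 to 11.91 in the other 4 SF testes, and 12.30, 11.29, 10.68, 10.22 and 10.98 in FF1 to FF5. In SS it was 14.03 in SS1, 13.13 in SS2 and 10.85 to 11.21 in the other 3. By the deposited values C minus B was 5.73 (53.2-fold) and B minus A 0.66 (1.58-fold). At day 133 it was 14.73 in F3 and 14.26 in S3, and 10.05 to 10.92 in the other 13 gonads (median 10.29). SS1, SS2 and SF1 thus stood apart from the remaining SF, FF and SS testes, and F3 and S3 from the remaining day 133 gonads, none of them as high as FS1, FS2 or FS4. The target was well above background on every array.

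**Figure D3:**
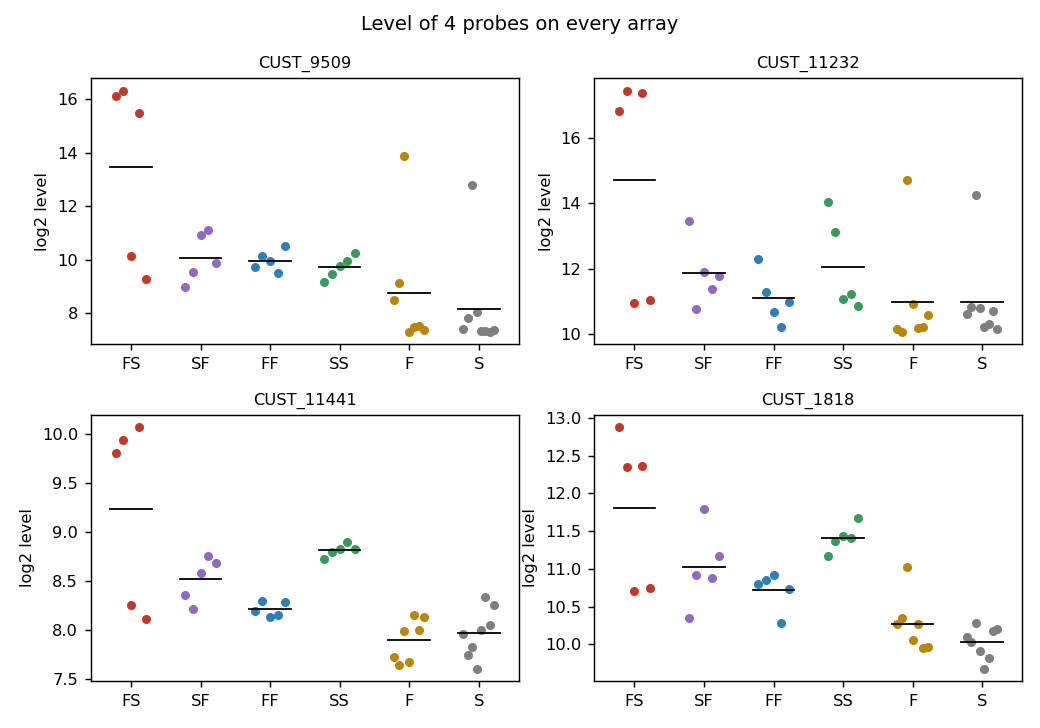
Each panel gives the log2 level of a probe on every array by group, with FS at the left and S at the right, and black lines at the group means. In CUST_9509 and CUST_11232, 3 FS points lie between 15.49 and 17.45, and 1 F and 1 S point lie far above the rest of their groups. In CUST_11441 the 5 FF points, at 8.14 to 8.30, lie below the 5 SS points, at 8.72 to 8.90.

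The high values of F3 and S3 extended to many of the other targets. The choice used the day 133 gonads only as a mean of 15, and the values of single day 133 gonads share no array with C minus B. Over the 200 targets F3 exceeded the mean of the other 14 day 133 gonads by a median of 0.65, from -0.80 to 5.82, and was above that mean in 188 targets (94.0%), against 44.3% of all probes, whose median was -0.05. The difference was at least 1 in 58 targets (29.0%; 2.16% of all probes). F3 was the highest of the 15 day 133 gonads in 114 targets (57.0%), against 6.72% of all probes. S3 exceeded the mean of the other 14 by a median of 0.19, from -0.62 to 4.65, and was above that mean in 151 targets (75.5%), against 44.5% of all probes. It was at least 1 above in 21 targets (10.5%; 1.54% of all probes) and among the 2 highest gonads in 63. S3 was the highest of the 15 in only 6 targets (3%), against 2.45% of all probes. For each of the other 13 gonads, the median difference from the remaining 14 lay between -0.25 and 0.09, and 0 to 2 targets were at least 1 above.

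The excess in F3 and S3 grew with the size of C minus B. Over the 200 targets, the excess of F3 over the other day 133 gonads was correlated with C minus B with a Pearson r of 0.75, and that of S3 with an r of 0.69, while the r of the other 13 gonads lay between -0.40 and 0.02. Over all 24198 and 24194 probes with a value, the r was 0.40 for F3 and 0.13 for S3, and between -0.22 and 0.11 for the other 13 gonads, so that S3 hardly differed from these over all probes. The mean set against each of these 13 gonads includes F3 and S3, which lowers the r of the 13. Their negative values are therefore not read as an opposite trend. These correlations are across probes on single arrays, and the points share their libraries. In the 20 targets with C minus B of at least 3, the median excess of F3 was 2.15 and all 20 were above the mean of the other gonads, and the median excess of S3 was 0.92, with 18 of 20 above. In the 56 targets with C minus B from 2 to 3 the medians were 0.82 and 0.26. In the 124 targets under 2 they were 0.43 and 0.12.

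**Figure D4:**
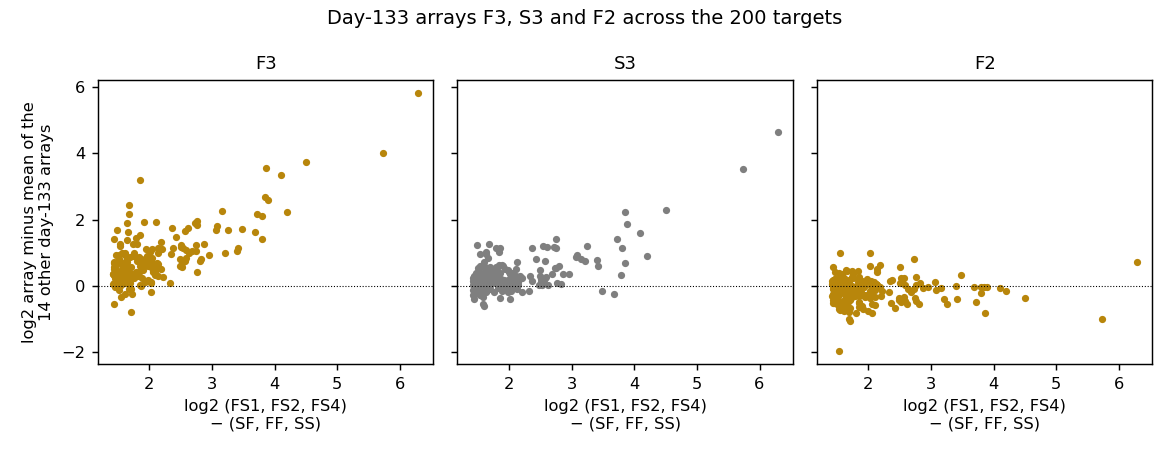
Each point is 1 of the 200 targets, with C minus B of the deposited log2 values on the horizontal axis and, on the vertical axis, the log2 level on a day 133 array minus the mean of the other 14 day 133 arrays, for F3 (left), S3 (middle) and F2 (right, shown as an array of the same slide as F3). F3 reached 5.82 and S3 4.65 at the largest C minus B, while the points of F2 lie between -1.97 and 1.01 (Pearson r 0.02). The mean set against F2 includes F3 and S3.

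In the 20 targets with C minus B of at least 3, F3 also stood above the mean of the SF, FF and SS testes, with a median difference of 1.05 and 19 of 20 above, whereas the 13 gonads other than F3 and S3 were at a median of -1.15 (-2.23 to -0.64). S3 was at a median of 0.11, with 12 of 20 above. FS3 and FS5 together were at a median of -0.10 (-0.68 to 0.29). F3 lay on a slide with F1, F2 and F4, and S3 on a slide with S2, S4 and FF2, and none of the other day 133 arrays on these slides had such an excess. The part of slide in the excess of F3 and S3 was not tested.

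The excess of F3 extended to other probes. Of those high in FS1, FS2 and FS4, 334 were further probes against the chosen targets and are not separate from them. The excess without these 334 was not tested. Among the 2194 other probes that were high in FS1, FS2 and FS4, the median excess of F3 was 0.27 with 76.5% above 0, while that of S3 was 0.05 with 57.6% above 0, no higher than in S2 (0.06, 59.0%) and S7 (0.06, 56.5%). Among the 1298 of these that were flat with age, the r of the excess with C minus B was 0.83 for F3 and 0.68 for S3, and between -0.31 and -0.13 for the other 13 gonads. The mean set against each of the 13 again includes F3 and S3, which lowers their r. Among the 1026 probes that were higher at day 332 and lower in FS1, FS2 and FS4, the median excess was -0.20 in F3 and 0.04 in S3, and it was also low in S6 (-0.19), F7 (-0.17) and S8 (-0.15). The share of spots well above background was 49.8% on F3 and 58.2% on S3, and 43.2 to 74.4% over the day 133 arrays. Only F6 had a lower share than F3. The part of array brightness in the excess was not tested.

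Without F3 and S3, which are the high day 133 gonads, B minus A was 0.49 to 3.76 (median 0.89). All 15 SF, FF and SS testes stood above all 15 day 133 gonads in 31 of 197 targets (15.7%), against 6.49% of all probes. FS1, FS2 and FS4 stood above all day 133 gonads in 195 of 197 (99.0%), against 20.8% of all probes. Both counts use the contrasts that chose the targets.

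The targets varied together among the day 133 gonads. After removal of the group means, the mean Pearson r over pairs of the 200 targets was 0.34 across the F and S arrays, against 0.01 over all probes. It was 0.16 without F3 and 0.10 without F3 and S3, so that these 2 gonads carried most of it. Sets of probes that met only 1 of the 2 limits had lower values, of 0.05 to 0.10 across the F and S arrays. Without F3 and S3 these sets had 0.04 to 0.07. They were the probes higher at day 332 but not high in FS1, FS2 and FS4, and those high there but flat or falling with age. These sets held every probe past the limits, also several for a target. The 200 had 1 probe for each target and a C minus B of at least 1.42. The part of these differences between the sets in the lower values was not tested. Across the 15 SF, FF and SS testes the mean r of the targets was 0.17 (0.002 over all probes, 0.03 to 0.09 over the sets that met only 1 limit), and 0.20 without SS1 and SF1. Among the SF, FF and SS testes, 21 targets were at least 1 above the mean in SS1, 14 in SF1 and 7 in SS2, and 11 targets were so in both SS1 and SF1. SS1 was the highest of the 15 in 34 targets and the lowest in 22.

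A small set was distinguished by its change with age. In 6 targets B minus A was at least 2, from 2.55 to 3.45, while C minus B lay between 1.64 and 1.86. Their mean levels had a median of 13.80 in FS1, FS2 and FS4, 12.12 in FS3 and FS5, 12.06 in SF, 12.00 in FF and 12.48 in SS, against 9.46 in F and 9.08 in S. Across the 35 arrays the lowest Pearson r between any pair of these 6 was 0.86, which includes the differences that chose them. In 2 of the 6 all SF, FF and SS testes stood above all day 133 gonads. They may include sequences of the same transcript, which the files do not tell.

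At day 332 nearly all targets were measured above background. The share of target values well above background was 100% in FS (78.8% over all probes), 100% in SF (85.6%), 99.5% in FF (77.5%) and 99.9% in SS (81.5%). At day 133 it was 76.9% in F (62.5% over all probes) and 81.7% in S (67.5%). Of the 200 targets, 93 were well above background on every day 133 array and 3 on none. For these 3 the testes were at least 1.63-fold to at least 1.95-fold higher, which sets the SF, FF and SS mean against the lowest signal that counted as above background, or the probe's own value where higher, on the day 133 arrays. A low day 133 level near the floor can make B minus A smaller than the true difference.

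The names of the targets group them by how their sequences were obtained. Contigs, assembled from several reads, have names that start with SeabassC, and the other names start with cDN and the number of a series of reads whose tissue the files do not give. Of the 3305 contigs 80 (2.42%) were among the 200 targets, and of the 8400 cDN sequences 120 (1.43%), against 1.71% of all 11705. Within cDN the share was 19 of 367 (5.18%) in cDN23 and 19 of 300 (6.33%) in cDN24, and 82 of 7733 (1.06%) in the others, with 3 of 953 (0.31%) in cDN28. cDN23 also had a large share of targets high in FS1, FS2 and FS4 (27.2%, against 9.11% of all targets). In cDN24 that share was 9.67%, but 42.7% of its targets were higher at day 332 by at least 0.5, against 21.2% of all. Sequences of the same series can come from the same transcript, so these shares carry no test.

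**Figure D5:**
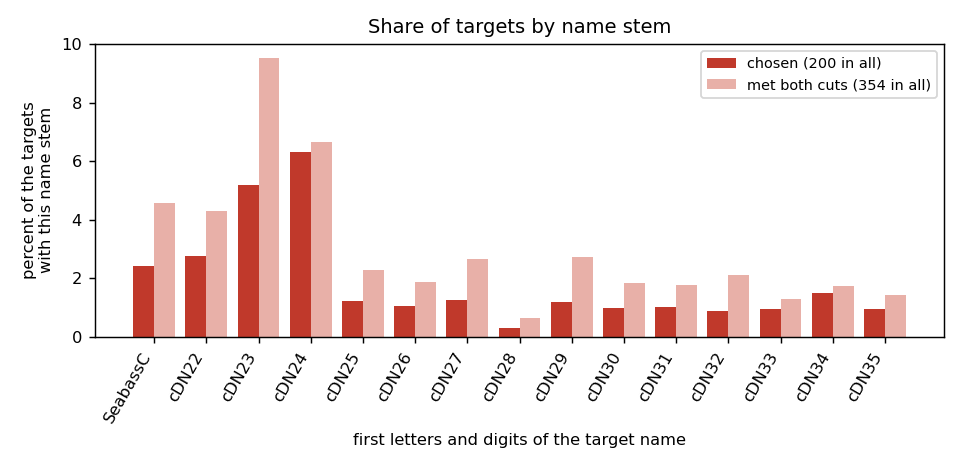
Bars give the percentage of the targets with each name stem that were chosen (dark) or that met both limits (light). cDN23 and cDN24 stand above the others, at 5.18 and 6.33% chosen, and cDN28 is lowest at 0.31%.

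The groups that the choice pooled allow comparisons it did not use, F vs. S at T1 and the pairs of SF, FF and SS at T2. They compare the targets between growth or feeding groups outside the FS group. Few or no probes were called in them, so a lack of called targets says little about the targets. A probe was called when it changed at least 1.5-fold with a Benjamini-Hochberg adjusted p under 0.01 in limma, fitted over all 24200 probes. Between F and S none of the 200 targets was called, and no probe on the array was (0%). At an unadjusted p under 0.05 there were 22 targets (11.0%), 15 higher and 7 lower in F, against 20.4% of all probes. The median difference of the targets, F minus S, was 0.06 (0.03 over all probes). This small positive value rested on F3: without it the median was -0.06 and 29 targets (14.5%) had an unadjusted p under 0.05, 8 higher and 21 lower in F, against 20.0% of all probes. The count was 12 to 14 (6 to 7%) without F1, F2, S5 or S7, against 14.9 to 17.0% of all probes. Within the second scan day, which held all F arrays and S1 to S4, the median was -0.02 and 2 targets (1.0%) had an unadjusted p under 0.05, against 7.90% of all probes.

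Between FF and SS, 1 of the 200 targets was called, against 24 of all probes (0.0992%). At an unadjusted p under 0.05 there were 43 targets (21.5%), 28 higher and 15 lower in FF, against 18.8% of all probes. Without FF5 there were 28 (14%), against 14.8% of all probes. The median difference FF minus SS was 0.06 (0.01 over all probes). The called target, CUST_11441_PI416070213 against cDN24P0006C14.F.ab1, measured 8.20, 8.30, 8.14, 8.16 and 8.28 in FF1 to FF5, and 8.72, 8.79, 8.83, 8.90 and 8.83 in SS1 to SS5. All 5 FF testes were below all 5 SS testes. It averaged 8.22 ± 0.07 in FF and 8.82 ± 0.06 in SS (SD, n = 5 each). The level in FF was lower than in SS by 0.60 on the log2 scale (SE 0.07, limma adjusted p = 0.00968). The adjusted p lay close to the threshold and over 19 alternatives was 0.00262 to 0.265. The call ended when any 1 array other than SS1 was left out. SF1 to SF5, at 8.36, 8.22, 8.58, 8.76 and 8.69, spanned the gap between both groups. In FS1, FS2 and FS4 the probe was at 9.80, 9.94 and 10.07, and in FS3 and FS5 at 8.26 and 8.12. The other 2 probes of this target had C minus B values of 0.89 and 1.45 and B minus A values of 0.26 and 0.78. Neither of them met both limits of the choice.

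The next lowest adjusted p for a lower level was that of CUST_1818_PI416070213, against SeabassC-CL1262Contig1. It measured 10.81, 10.85, 10.93, 10.29 and 10.73 in FF1 to FF5 and 11.17, 11.38, 11.43, 11.41 and 11.67 in SS1 to SS5, again without overlap. The means were 10.72 ± 0.25 in FF and 11.41 ± 0.18 in SS (SD, n = 5 each), with a difference of -0.69 (SE 0.14, limma adjusted p = 0.0407, 0.00887 to 0.285 over 19 alternatives) that was not called. FF and SS arrays never shared a slide, and slide and group cannot be told apart in these values. The spike-in controls, RNA added along with the labelling, had a level relative to the 75th percentile of the array of 4.40 ± 0.92 in SS (SD, n = 5), against -0.27 ± 1.29 over the other 30 arrays (SD). On the slide that SF and SS shared, SS1 and SS2 were at 3.08 and 4.88, and SF4 and SF5 at -1.75 and -1.73. The amount added to each array is not given. The part of this in the SS values, which also enter B, was not tested.

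Between SF and SS no target was called, as no probe on the array was (0%). At an unadjusted p under 0.05 there were 34 targets (17.0%), 25 higher and 9 lower in SF, against 17.8% of all probes. Without SF4 there were 22 (11%), against 13.0% of all probes. The median difference, SF minus SS, was 0.12 (0.01 over all probes), and 0.19 (0.02 over all probes) without SS1. On the slide that SF4, SF5, SS1 and SS2 shared, the median difference was -0.016 (0.016 over all probes). That value rests on these arrays alone and includes SS1. The part of slide in the difference was not tested. Between SF and FF no target and no probe was called (0%). At an unadjusted p under 0.05 there were 9 targets (4.50%), 8 higher and 1 lower in SF, against 5.8% of all probes, and the median difference SF minus FF was 0.04. The count of targets at that p was 19 (9.5%, against 7.90% of all probes) without SF2. It was 15 (7.5%, against 6.07%) without FF1 and 14 (7%, against 6.56%) without SF1.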

How the data were processed

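The authors deposited, for each of 35 one-colour Agilent arrays, the scanner output of Feature Extraction (version 10.7.3.1 in the file headers), with the intensity of each spot and its local background on a linear scale. A processed matrix with a log2 value per probe was deposited too, made by the authors with normexp correction of the background and quantile normalization. The 200 targets were chosen on this matrix. Members, named probes and tests were chosen with earlier results of these data known.

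All other values were recomputed from the scanner output. Median intensities of 43803 sea bass spots were corrected by normexp (offset 50), quantile normalized over all arrays and taken to log2, and each probe was given the median of its unflagged spots (2763 spots were flagged and none saturated). Of the matrix values, 98.3% lay within 0.1 of these. Pairs of groups were compared by lmFit and eBayes (limma 3.58.1, R 4.3.3) without covariates, at the methods' limits of 1.5-fold and an adjusted p under 0.01. The methods do not say whether each pair was fitted alone, and their filter on reliable probes was not part of the main fit. Python 3.11.15 and matplotlib 3.10.9 were used for summaries and plots. Only the limma comparison step was tested on simulated data.

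The array medians of the matrix were 8.43 to 8.49. The median signal was 112.5 to 285 at day 133 and 178 to 752 at day 332, so dim probes were measured less well at day 133. The number of arrays limits the precision. Arrays are called by the replicate number in the sample titles, and at day 332 the deposited files are numbered differently. The arrays filled 9 slides and 2 scan days, and no 2 held identical values (highest correlation 0.989). The 2 targets that were highest by C minus B and 2 with the lowest adjusted p for a negative difference were named by identifier. Gene lists and cell type markers that had been planned could not be applied, since no probe could be named. Alternatives were other background corrections and scalings, the deposited matrix, a filter on dim probes, the mean of spots, all groups in one fit, array weights, slide, scan day and replicate number as blocks, and leaving out each array.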

Additional observations from a re-analysis of the deposited data

Results flagged for a closer look

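Of 30 checks of the highest or lowest array within a group (6 groups, the median level of the 200 targets and the 4 named probes), 6 found an array far from the rest of its group. Chance alone gives about 1 such result in 20 independent checks. These checks are not independent, since the named probes belong to the 200 targets, so the count is not set against chance. All 6 results were for F3 or S3.

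For the median level of the 200 targets relative to the SF, FF and SS testes, F3 was at -0.29 and the other 6 F gonads at -1.15 to -0.83. For CUST_9509_PI416070213, F3 was at 13.87 and the other F gonads at 7.29 to 9.12, and S3 was at 12.78 and the other S gonads at 7.29 to 8.05. For CUST_11232_PI416070213, F3 was at 14.73 and the other F gonads at 10.05 to 10.92, and S3 was at 14.26 and the other S gonads at 10.15 to 10.81. For CUST_1818_PI416070213, F3 was at 11.02 and the other F gonads at 9.96 to 10.34.

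The FS group was not picked out by this check, since its values fall into a group of 3 high fish and 2 others.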

How the results depend on the processing

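The 200 targets depended on how the values were made. Applied to the recomputed values the same rule shared 195 of 200 targets, with a normexp offset of 0 it shared 154, and with the processed signal scaled to the 75th percentile 117, where 194 of the 200 still met both limits but 799 targets did. Without FS1, FS2 or FS4 in turn it shared 183 to 189. The processed signal also moved the median C minus B of all probes to -0.41, against -0.04 in the recomputed values, and that of the targets to 2.40, against 1.78.

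For F vs. S, probes called were 94 with all groups in one fit, 4 with array weights and 5 with slide as a fixed block (chosen after seeing the data), against 0, and 0 in every other setting and without each array. No target was called in any setting, and the median difference lay between -0.06 and 0.13 without each array. It was -0.05 with array weights and -0.11 with slide as a fixed block. For FF vs. SS, probes called were 44 with the processed signal, 83 with the deposited matrix, 8 with the filter on dim probes, 116 with all groups in one fit, 191 with array weights and 0 with slide as a random block, against 24. Targets called were 2 with the matrix and array weights, 0 with the processed signal, an offset of 0, the filter, one fit and slide as a random block, against 1. Without each array, probes called were 0 to 68 (68 without SS1, 11 without SS5, 0 without each of the others), targets called 0 to 1 and the median 0.01 to 0.14. For SF vs. SS, probes called were 29 with the processed signal, 2 with an offset of 0, 51 with the matrix (1 of them a target), 64 with one fit and 116 with array weights, against 0, and 0 to 67 without each array, the 67 without SS1. The median was -0.016 within the shared slide and -0.016 with slide as a fixed block, both chosen after seeing the data, and 0.07 to 0.19 without each array. For SF vs. FF no probe was called in any setting, and the median was -0.01 to 0.09 without each array. The cause of these moves was not tested.

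Replicate numbers, taken from the sample titles, did not pair the fish, since the correlation of same-numbered arrays ran from -0.21 to 0.39 for F vs. S, -0.10 to 0.61 for FF vs. SS, -0.24 to 0.69 for SF vs. SS and 0.09 to 0.78 for SF vs. FF. With the replicate number as a block, 0 probes were called in all 4 comparisons (FF vs. SS 0 against 24, and 0 targets against 1). At best 3 of 7 arrays correlated most with their own number.

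Signal over background limits the day 133 values, where 7 targets were well above background on no F array and 8 on no S array.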
